A study of Mus musculus with 10 samples.

Results

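The mouse Hox clusters A to D were followed in messenger RNA libraries labelled as cortical endothelial cells (ECs), which line the brain's vessels and make up the blood-brain barrier (BBB). Members were taken by symbol alone, as every line of the table named Hox with a cluster letter from a to d and a number. This gave 39 genes of 21612, and no measured value entered the choice. On the mm10 genome (GRCm38) the HoxA cluster holds 11 of them over 105.3 kb at chr6:52155590-52260880 on the minus strand. HoxB holds 10 over 173.9 kb at chr11:96194316-96368256 on the plus strand. HoxC holds 9 over 115.8 kb at chr15:102921103-103036852 and HoxD holds 9 over 96.83 kb at chr2:74668310-74765142, both on the plus strand. The number in a symbol is the paralog group, the position that genes share across the clusters.

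The 10 libraries fall into 4 groups of wild-type (WT) mice. Adult cortical ECs were treated in culture with MS-275 (n = 2) or with Wnt3a (n = 2), or were left as adult control (n = 3), and the last group is labelled E13.5, an embryonic stage counted in days (n = 3). MS-275 (entinostat), labelled at 10 µM, inhibits the class I histone deacetylases, enzymes that remove acetyl groups from histones. Wnt3a, labelled at 200 nM, is a secreted protein that activates Wnt/β-catenin signalling, and the unit in the study's methods is instead a mass in a volume. A replicate is a pool of ECs from a litter, the cells were grown on collagen, and the labels do not say which control belongs to which treated library. The design asks how the genes differ between adult and embryonic ECs and what the inhibitor and the ligand do to adult ECs.

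Hox genes encode homeodomain transcription factors that assign position along the body axis. Within a cluster the low-numbered genes are switched on first and furthest forward, and the high-numbered genes later and further back, an order called colinearity. Polycomb complexes keep the unused part of a cluster silent, trithorax complexes keep the used part active, and retinoic acid induces the low-numbered end. The embryonic forebrain and midbrain lie in front of the Hox domains. In cultured ECs, mainly of human origin, Hoxd3, Hoxa3, Hoxb3 and Hoxb5 are known to promote vessel growth, while Hoxa5 and Hoxd10 are known to hold it back.

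Values are normalised counts, reads per gene after division by the authors' size factor of each library. The libraries held 21116014 to 31733768 reads on genes, and 1 read was worth between 0.795 and 1.39 normalised counts. The summed level of 10 EC markers was 23820 to 33832 in the MS-275 libraries and 185621 to 232366 with Wnt3a, against 235661 to 309321 in the adult controls. It was 1055 to 1726 in the libraries labelled E13.5, where Cldn5, Tie1 and Erg averaged 1.06, 4.11 and 2.95 normalised counts. The 10 neural progenitor and neuron markers summed to 1827 to 4841 in the adult controls and 32030 to 40996 in the E13.5 libraries, and the 9 pericyte, smooth muscle and fibroblast markers to 97.6 to 103 and 35469 to 61251. The E13.5 libraries thus hold few transcripts that define ECs, and they are named here by their label only.

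Of the 39 members, 34 had at least a read in some library, and Hoxa11, Hoxc8, Hoxc9, Hoxc12 and Hoxd12 had none. A gene was tested when it had at least 10 normalised counts in at least 2 libraries, a limit that 23 members passed and 16 did not. The 16 reached at most 22.2 normalised counts in any library. Values of 19 members are given for every library, and most of the others, which averaged less than 100 in every group and were not called, are given by range.

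Adult control ECs expressed a stretch of genes in 3 of the clusters and left the HoxC cluster almost without reads. Summed over all members, Hox genes took 17364, 18472 and 25883 normalised counts in the adult controls. HoxB gave 60.5% of the mean sum, HoxD 33.7%, HoxA 5.80% and HoxC 0.00639%. Exon length differs among the genes, so levels were compared per kb of exon. On that scale the adult controls averaged 2177 normalised counts per kb for Hoxb8, 1625 for Hoxb7, 1511 for Hoxd8 and 902 for Hoxb6. Hoxd10 followed with 469.7, Hoxd9 with 413 and Hoxa7 with 309.6, and the levels of Hoxb3 and Hoxb4 were both 269. Paralog group 8 alone, Hoxb8 and Hoxd8, held 48.0% of the summed normalised counts.

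**Figure D1:**
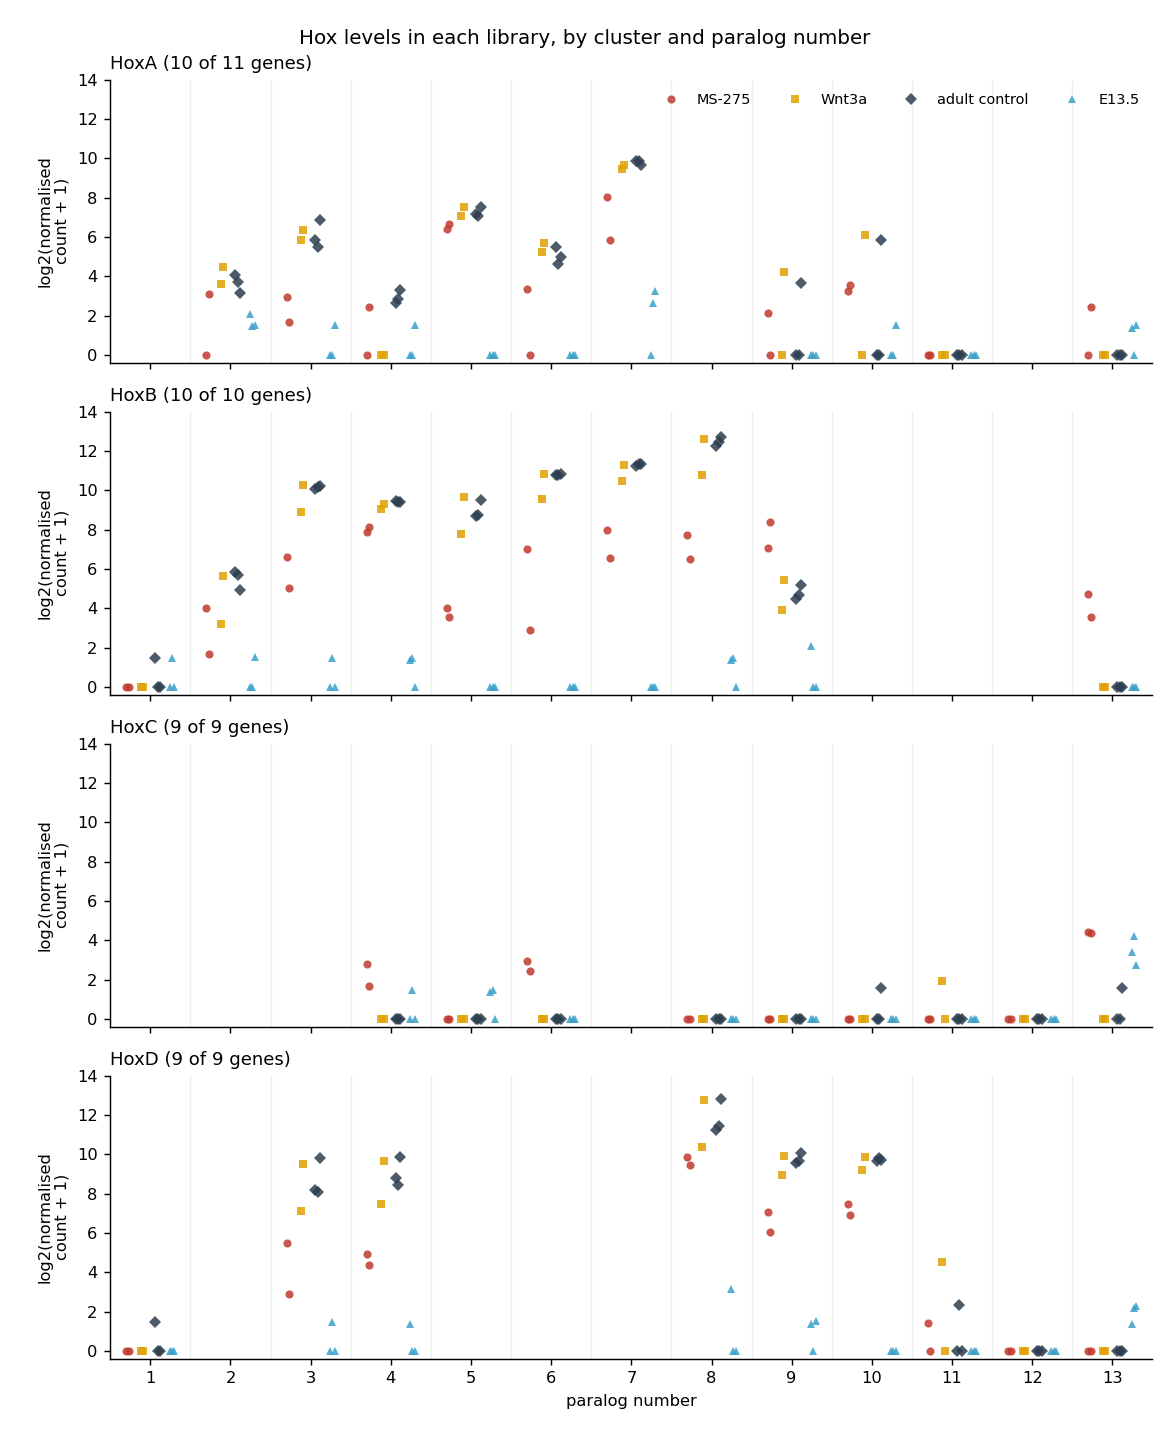
Level of 38 of the 39 Hox members as log2(normalised count + 1) against the paralog number, with 1 panel for each cluster and a point for each library, by group, and no points at numbers for which no gene is drawn. In the adult controls the high values run over Hoxa3 to Hoxa7 without Hoxa4, Hoxb2 to Hoxb8 and Hoxd3 to Hoxd10, and HoxC stays at or near 0.

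The upper edge of the expressed stretch lay between neighbouring genes in HoxA and HoxD. Hoxa7 (chr6:52214491-52221854) averaged 891 ± 81.4 normalised counts in the adult controls (SD, n = 3), while the next member, Hoxa9, had 0, 0 and 11.8. Hoxa10, beyond this edge, had 0, 0 and 56.2, which in control 3 is above Hoxa6 at 30.6, so the HoxA edge was clear in controls 1 and 2 only. Hoxd10 (chr2:74691924-74695105) averaged 853 ± 53.0, while the next member, Hoxd11, had 0, 4.07 and 0. In HoxB the edge lay between Hoxb8 (chr11:96281905-96285315), at 5737 ± 877, and Hoxb9 (chr11:96271457-96276595), at 26.9 ± 7.65, with Hoxb13 without a read in any adult control.

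RefSeq promoter windows on GRCm38.p6, each the 250 bases before an annotated start, were available for 22 of the 39 members, and 17 members, Hoxb7, Hoxb9 and Hoxb13 among them, had no entry. They are shown for the most expressed member, Hoxb8, and for the genes on either side of the edge in HoxD and HoxA. Capitals mark TAAT or its reverse complement ATTA, the core that homeodomain proteins bind. The RefSeq starts of Hoxa7 and Hoxa9 lie inside the longer gene models of the GENCODE annotation, and the window of Hoxd11 belongs to the first of 2 RefSeq starts. Each sequence reads 5′ to 3′ on the strand of the gene.
Hoxb8, chr11:96281655-96281904, plus strand: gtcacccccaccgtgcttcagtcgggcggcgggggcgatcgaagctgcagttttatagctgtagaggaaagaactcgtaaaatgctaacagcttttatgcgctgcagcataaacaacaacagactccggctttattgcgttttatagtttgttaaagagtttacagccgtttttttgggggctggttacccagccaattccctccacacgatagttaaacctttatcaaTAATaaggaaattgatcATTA
Hoxd10, chr2:74691641-74691890, plus strand: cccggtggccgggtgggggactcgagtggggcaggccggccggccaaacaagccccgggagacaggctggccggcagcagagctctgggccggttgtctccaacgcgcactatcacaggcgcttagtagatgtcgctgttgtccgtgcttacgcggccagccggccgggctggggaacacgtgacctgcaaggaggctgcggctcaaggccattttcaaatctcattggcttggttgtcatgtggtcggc
Hoxd11, chr2:74679308-74679557, plus strand: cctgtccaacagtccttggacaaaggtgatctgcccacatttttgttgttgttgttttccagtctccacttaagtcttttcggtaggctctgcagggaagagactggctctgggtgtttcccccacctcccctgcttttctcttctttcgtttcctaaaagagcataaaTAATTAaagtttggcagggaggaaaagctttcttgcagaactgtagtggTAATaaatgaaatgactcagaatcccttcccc
Hoxa7, chr6:52218574-52218823, minus strand: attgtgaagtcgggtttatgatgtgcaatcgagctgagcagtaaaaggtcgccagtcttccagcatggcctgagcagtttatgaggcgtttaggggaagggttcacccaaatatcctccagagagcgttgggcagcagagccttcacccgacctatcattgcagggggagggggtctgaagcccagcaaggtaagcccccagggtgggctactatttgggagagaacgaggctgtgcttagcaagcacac
Hoxa9, chr6:52227371-52227620, minus strand: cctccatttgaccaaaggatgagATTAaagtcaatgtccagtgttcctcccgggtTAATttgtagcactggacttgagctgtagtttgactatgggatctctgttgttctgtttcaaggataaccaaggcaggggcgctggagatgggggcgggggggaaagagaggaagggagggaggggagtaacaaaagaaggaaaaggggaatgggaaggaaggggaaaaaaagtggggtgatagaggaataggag

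The windows of the expressed edge genes Hoxd10 and Hoxa7 held no TAAT on either strand. Those of the neighbours beyond the edge held 3 at the first start of Hoxd11, 2 at its second start and 2 in Hoxa9. Counts include overlapping matches. The window of Hoxb8 held 2. Over all 24 Hox starts, 18 windows (75%) held TAAT, against 54.9% of all 32851 promoter windows. The median was 1 TAAT both for the 9 starts of members with an adult control mean of at least 100 and for the 15 starts of members below it. TGATNNAT, a site for Hox proteins with a Pbx partner searched on both strands, was found in 4 Hox windows (16.7%) and in 7.68% of all windows. CG dinucleotides had a median of 12.5 over the Hox windows and 6 over all windows. Hoxd10 held 20, Hoxb8 12, Hoxa7 7, Hoxa9 3 and Hoxd11 2 at its first start and 20 at its second. A match describes these letters only.

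In the adult controls against the E13.5 libraries, 17 of the 23 tested members were higher, 1 was lower and 5 did not pass the test. The test was limma on log2(normalised count + 1), with calls made where the adjusted p was under 0.05 and the log2 difference was beyond 0.2 in size. Over all 15211 genes tested, 2722 (17.9%) were higher and 4740 (31.2%) lower, and quantile normalisation turned that split to 4488 higher and 3571 lower. The median log2 difference was 7.83 over the tested members and -0.20 over all genes tested. No member would have passed the limit on low values by the E13.5 libraries alone, so these counts and this median describe the members and support nothing further. HoxB had 8 higher of 9 tested, HoxA 4 of 8, HoxD 5 of 5, and the only tested HoxC member was the lower one. Summed Hox levels were 17364 to 25883 in the adult controls and 33.4 to 43.4 in the E13.5 libraries, where all members together had 133 reads. These are bulk libraries, in which fewer cells of a type and less RNA per cell cannot be told apart. The EC markers were all higher in the adult controls (10 of 10). All 10 neural progenitor and neuron markers and all 9 pericyte, smooth muscle and fibroblast markers were lower, as were 5 of 6 astrocyte and oligodendrocyte markers, 4 of 5 tested microglia and leukocyte markers and 4 of 4 tested epithelial and choroid plexus markers. Their part in the Hox differences was not tested.

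The expressed HoxA genes lay in the forward part of the cluster. Hoxa3, a gene of the neck and its glands, had 56.4, 43.7 and 114 normalised counts in the adult controls, against 0, 0 and 1.91 in the E13.5 libraries. Hoxa5, which acts in lung and neck vertebrae, had 143, 131 and 183, and no read in the E13.5 libraries. Neither gene overlapped between the groups. Hoxa6 had 43.4, 23.4 and 30.6 in the adult controls and also no read in the E13.5 libraries. Hoxa7, a gene of the trunk vertebrae, had 933, 942 and 797, against 0, 5.20 and 8.59. All 4 rose, Hoxa7 by 7.83 on the log2 scale (SE 0.84, limma adjusted p = 6.3e-05) and Hoxa3 by 5.55 (SE 0.60, limma adjusted p = 7.1e-05). Against a floor of 3 reads over the E13.5 libraries, Hoxa5 was at least 176-fold and Hoxa6 at least 37.4-fold higher.

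HoxB carried the largest levels and differences. Hoxb2, needed for the facial motor nerve, had 57.3, 50.8 and 29.6 normalised counts in the adult controls, against 0, 0 and 1.91 in the E13.5 libraries. Hoxb3 had 1088, 1144 and 1202, against 0, 1.73 and 0. Hoxb4, known for expanding blood stem cells, had 700.0, 684 and 683, against 1.59, 1.73 and 0. The adult libraries agreed closely for Hoxb3 and Hoxb4, and no value overlapped between the groups. Hoxb5, a regulator of the VEGF receptor gene Kdr, had 416, 424 and 716 in the adult controls. Hoxb6, active in blood progenitors, had 1767, 1745 and 1803, and Hoxb7, a thoracic gene, had 2403, 2555 and 2567. None of these 3 genes had a read in the E13.5 libraries, which makes the adult level at least 598-fold higher for Hoxb5, at least 2043-fold for Hoxb6 and at least 2893-fold for Hoxb7. Hoxb8, known from blood progenitors and the spinal cord, had 4955, 5572 and 6685, against 1.59, 1.73 and 0, and Hoxb9, a gene of the rib cage, had 20.8, 24.4 and 35.5, against 3.18, 0 and 0. Hoxb9 lay far below its neighbour but was still higher than in the E13.5 libraries. All 8 passed the test, with log2 differences between 4.08 for Hoxb9 (SE 0.70, limma adjusted p = 0.0012) and 11.53 for Hoxb8 (SE 0.58, limma adjusted p = 7.3e-07).

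In HoxD the expressed genes were Hoxd3, Hoxd4, Hoxd8, Hoxd9 and Hoxd10. Hoxd3 had 292, 269 and 885 normalised counts in the adult controls, against 0, 1.73 and 0 in the E13.5 libraries. Hoxd4, a hindbrain and neck gene, had 439.8, 352 and 919, against 1.59, 0 and 0. Of the annotated exon length of Hoxd3 and Hoxd4, 62.3% and 52.3% is shared with coding genes on the same strand, namely each other and Gm28230. The part shared by the pair alone was not separated, and reads in shared exons cannot be told apart. Hoxd8, a trunk gene that also acts in lymphatic vessels, had 2459, 2759 and 7221, against 7.95, 0 and 0. Control 3 was the highest adult control for all 3 genes. Hoxd9 had 752, 815 and 1077, against 1.59, 0 and 1.91. Hoxd10, needed for hindlimb motor neurons, had 812, 913 and 834 and no read in the E13.5 libraries, at least 984-fold higher. The 5 genes rose by log2 differences of 8.21 for Hoxd3 (SE 0.89, limma adjusted p = 7.0e-05) to 10.78 for Hoxd8 (SE 0.93, limma adjusted p = 1.7e-05), with Hoxd10 at 9.74 (SE 0.31, limma adjusted p = 1.4e-07).

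Part of the few Hox reads of the E13.5 libraries lay at the far end of the clusters. Hoxc13, a gene of hair and nail, had 0, 0 and 1.97 normalised counts in the adult controls, against 9.54, 17.3 and 5.73 in the E13.5 libraries, and fell by 2.92 on the log2 scale (SE 0.54, limma adjusted p = 0.0018, and 0.000629 to 0.502 over the alternatives). With quantile normalisation the call was lost and the log2 difference was 0.42 (adjusted p = 0.502). Hoxd13, a digit gene that was not tested, had no read in the adult controls, against 1.59, 3.47 and 3.82, which puts the adult level at least 3.11-fold lower. Paralog group 13 held 0.0032% of the summed Hox counts in the adult controls and 39.1% in the E13.5 libraries. These are small numbers, with 1 member, Hoxc13, averaging at least 10 in the E13.5 libraries. The members that did not pass the test included Hoxa9, Hoxa10 and Hoxb13. Hoxa2, a gene of the hindbrain and the second branchial arch, came nearest at 1.96 (SE 0.73, limma adjusted p = 0.0523, and 0.000472 to 0.143 over the alternatives).

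**Figure D2:**
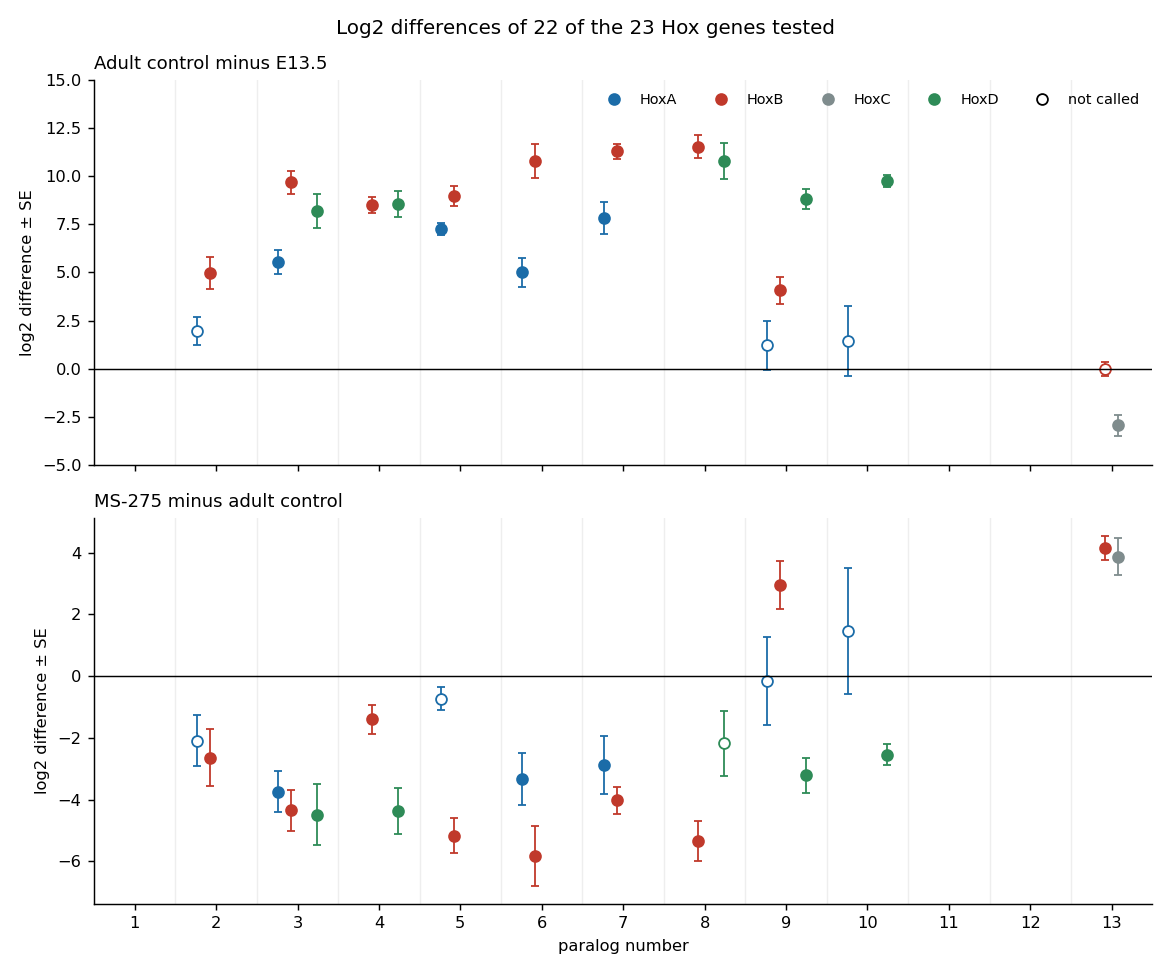
Log2 difference of 22 of the 23 tested Hox members against the paralog number, coloured by cluster, with bars of 1 standard error and open circles for members not called. In the upper panel 17 members lie above 0 and Hoxc13 below it and are called for the adult controls against the E13.5 libraries, and in the lower panel 14 lie below 0 and 3 above it and are called for MS-275 against the adult controls.

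With MS-275, 14 of the 23 tested members were lower than in the adult controls, 3 were higher and 6 did not pass the limma test. Of the 3 higher members, Hoxb13 and Hoxc13 passed the limit on low values only with the MS-275 libraries, in which they were high, so their place among the higher members is a description. Over all genes tested, 17.4% were lower and 21.8% higher. The median log2 difference was -2.65 over the tested members and 0.15 over all genes. By the MS-275 libraries alone, 14 of the 23 tested members would have passed the limit on low values. Among those that would not were Hoxa3, Hoxa6, Hoxb2, Hoxb6 and Hoxd3, all called lower. The lower count and the median thus describe the members and support nothing further. The summed Hox level was 2825 and 2033 normalised counts in the MS-275 libraries, against 17364, 18472 and 25883 in the adult controls. By cluster, HoxA had 3 lower of 8 tested, HoxB 7 lower and 2 higher of 9, HoxC 1 higher of 1, and HoxD 4 lower of 5. The EC markers moved in the same direction, with 9 of 10 lower, and their part in the Hox differences was not tested. Of the neural progenitor and neuron markers 4 of 10 were higher, Tubb3, Stmn2, Map2 and Fabp7, and none was lower. Tubb3, a tubulin of neurons, had 568 and 334 normalised counts with MS-275, against 1.73, 2.03 and 0 in the adult controls, and rose by 7.75 on the log2 scale (limma adjusted p = 0.0025). The list summed to 2792 to 5387 with MS-275, against 1827 to 4841 in the adult controls, most of it from Nes, which was not called. Without Nes, a sum taken after seeing the data, the other 9 markers had 551 to 600.5 with MS-275, against 1.97 to 10.2 in the adult controls. Sox2, Hes5, Dcx and Neurod1 had no read in either group. Of the pericyte, smooth muscle and fibroblast markers 3 of 9 were higher, at 250.3 to 298 with MS-275, against 97.6 to 103 in the adult controls. The astrocyte and oligodendrocyte list had 1 of 6 higher, and the microglia and epithelial lists had none. The part of these lists was not tested.

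**Figure D3:**
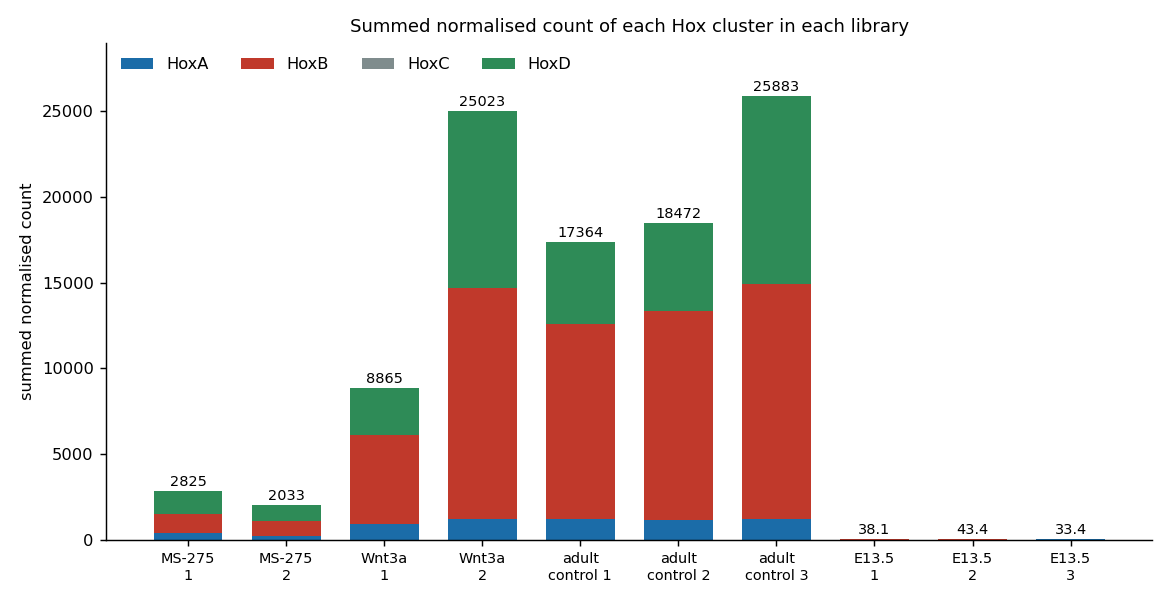
Stacked bars of the normalised counts summed over the members of each cluster, on a linear axis from 0, with 1 bar for each library and its total above it. The MS-275 bars reach 2825 and 2033, below all 3 adult control bars at 17364 to 25883, the Wnt3a bars stand at 8865 and 25023, and the HoxC share is too small to be seen in any bar.

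HoxB gave the largest losses. Its summed level was 1110 and 869 normalised counts with MS-275, against 11409, 12199 and 13722 in the adult controls. Hoxb5 had 15.4 and 10.9, against 416, 424 and 716, Hoxb8 had 211 and 90.7, against 4955, 5572 and 6685, and neither gene overlapped between the groups. Hoxb5 fell by 5.17 on the log2 scale (SE 0.56, limma adjusted p = 3.2e-04) and Hoxb8 fell by 5.35 (SE 0.65, limma adjusted p = 5.0e-04). Hoxb6 had 127 and 6.56, against 1745 to 1803, and the MS-275 libraries differed from each other more for this gene than for the other 4 named here. It fell by 5.83 (SE 0.98, limma adjusted p = 0.0021). Hoxb3 had 95.5 and 31.7, against 1088 to 1202, and Hoxb7 had 249.9 and 94.0, against 2403 to 2567. Hoxb3 fell by 4.35 (SE 0.65, limma adjusted p = 0.0013) and Hoxb7 fell by 4.02 (SE 0.44, limma adjusted p = 3.3e-04). MS-275 2 was the lower library for all 5 genes. Of the exon length, 52.9% of Hoxb3 and 27.3% of Hoxb2 lies opposite the antisense gene Hoxb3os, and without a known counting strand their reads cannot be told apart there.

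Hoxb4 kept more of its level than the genes on either side. It had 239 and 284 normalised counts with MS-275, against 683 to 700.0 in the adult controls, and kept 34.7% and 41.2% of the control mean. Hoxb5 next to it kept 2.96% and 2.11%, and Hoxb3 on the other side 8.35% and 2.77%. Hoxb4 fell by 1.40 (SE 0.46, limma adjusted p = 0.0398). Hoxb2 had 15.4 and 2.19, against 57.3, 50.8 and 29.6, and fell by 2.65 (SE 0.92, limma adjusted p = 0.0491). Neither call was firm: leaving out any single library of either group took Hoxb4 to an adjusted p of 0.059 to 0.139. Hoxb2 had 0.34 without MS-275 2, and 0.122, 0.11 and 0.0517 without controls 1, 2 and 3. Over all alternatives its adjusted p ranged from 0.00827 to 0.34, and that of Hoxb4 from 1.84e-08 to 0.139.

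Hoxb9 and Hoxb13, on the far side of the edge, had higher levels with MS-275. Hoxb9 had 131 and 338 normalised counts with MS-275, against 20.8, 24.4 and 35.5 in the adult controls, and the groups did not overlap. It rose by 2.96 on the log2 scale (SE 0.78, limma adjusted p = 0.0167), 8.72-fold in the means. Per kb of exon it averaged 91.1 with MS-275, next to 102 for Hoxb4, 111 for Hoxb7 and 57.2 for Hoxb8. The MS-275 libraries differed here. Hoxb8 and Hoxb9 had 211 and 131 normalised counts in MS-275 1 and 90.7 and 338 in MS-275 2. The step down from Hoxb8 to Hoxb9 seen in the adult controls was therefore smaller in MS-275 1 and reversed in MS-275 2. Hoxb13, a gene of the prostate and tail, had 25.6 and 10.9 with MS-275, 40 reads in all, and no read in any other library. It was at least 19.2-fold higher than the adult controls, with no test drawn on, since only the MS-275 libraries brought it past the limit on low values. Without MS-275 2 the adjusted p of Hoxb9 was 0.131, and without control 1 it was 0.0523, with a range over all alternatives of 0.000305 to 0.131. DESeq2 gave Hoxb13 an adjusted p of 0.213.

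HoxC, the cluster with almost no reads in adult ECs, gained a low signal. Its summed level was 33.3 and 26.2 normalised counts with MS-275, against 0, 0 and 3.94 in the adult controls. Hoxc13 had 20.5 and 19.7, against 0, 0 and 1.97, a log2 difference of 3.87 (SE 0.60). Hoxc4 and Hoxc6 did not pass the limit on low values. Hoxc4 had 5.97 and 2.19 and Hoxc6 6.82 and 4.37 with MS-275, and neither had a read in the adult controls. This made Hoxc4 at least 4.28-fold and Hoxc6 at least 5.88-fold higher against a floor of 3 reads over the controls. No read of Hoxc5, Hoxc8, Hoxc9, Hoxc10, Hoxc11 or Hoxc12 was found with MS-275. Paralog group 13, from Hoxa13, Hoxb13 and Hoxc13, summed to 46.1 and 35.0 normalised counts with MS-275, against 0, 0 and 1.97 in the adult controls.

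In HoxA, the 3 members that fell were Hoxa3, Hoxa6 and Hoxa7, while Hoxa5 between them did not pass the test. Hoxa3 had 6.82 and 2.19 normalised counts with MS-275, against 56.4, 43.7 and 114 in the adult controls, and fell by 3.74 on the log2 scale (SE 0.67, limma adjusted p = 0.0029). Hoxa5 had 83.6 and 98.4, against 143, 131 and 183, a log2 difference of -0.73 (SE 0.36, limma adjusted p = 0.145). Its groups did not overlap, and it kept 54.8% and 64.5% of the control mean. Hoxa6 had 9.38 and 0, against 43.4, 23.4 and 30.6, and fell by 3.33 (SE 0.84, limma adjusted p = 0.0132). Hoxa7 had 259 and 55.7, against 933, 942 and 797, and fell by 2.87 (SE 0.94, limma adjusted p = 0.0384). The call of Hoxa7 was lost without MS-275 2 (adjusted p = 0.283) and without control 1, 2 or 3 (0.0891, 0.0864 and 0.0572), and that of Hoxa6 with edgeR (0.0957) and DESeq2 (0.053). Over all alternatives their adjusted p ranged from 0.00185 to 0.283 for Hoxa7 and 0.000417 to 0.128 for Hoxa6. Of the annotated exon length of Hoxa3 and Hoxa7, 25.4% and 20.4% lies opposite antisense genes, Hoxaas3 among them.

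In HoxD, Hoxd8 was the only tested member that was not called. It had 919 and 712 normalised counts with MS-275, against 2459, 2759 and 7221 in the adult controls, a log2 difference of -2.18 that did not pass the test (SE 1.04, limma adjusted p = 0.131), although the groups did not overlap. At 297 normalised counts per kb it was the highest member with MS-275. Hoxd9 had 133 and 64.5, against 752, 815 and 1077, and fell by 3.22 (SE 0.57, limma adjusted p = 0.0028). Hoxd10 had 177 and 119, against 812, 913 and 834, and fell by 2.54 (SE 0.35, limma adjusted p = 8.8e-04). At the low-numbered end, Hoxd4 kept 5.24% and 3.45% of the control mean and Hoxd3 9.02% and 1.36%. Hoxd4 had 29.9 and 19.7, against 439.8, 352 and 919, and fell by 4.37 (SE 0.75, limma adjusted p = 0.0024). Hoxd3 had 43.5 and 6.56, against 292, 269 and 885, and fell by 4.49 (SE 1.00, limma adjusted p = 0.0077). The call of Hoxd3 was lost without MS-275 2 (adjusted p = 0.0773), and a log2 pseudocount of 10 gave Hoxd8 an adjusted p of 0.0362. Over all alternatives the range was 8.79e-05 to 0.113 for Hoxd3 and 0.0362 to 0.358 for Hoxd8.

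HoxD held the largest share of the Hox signal with MS-275 and HoxB in the adult controls. HoxD gave 45.8% of the mean sum with MS-275 and 33.7% in the adult controls, HoxB 40.7% and 60.5%, HoxA 12.2% and 5.80%, and HoxC 1.22% and 0.00639%. The adult controls were not alike in this, with HoxD sums of 4757, 5112 and 10936 out of 17364, 18472 and 25883 normalised counts. With MS-275 the HoxD sums were 1304 and 921, of which Hoxd8, a member not called, gave 919 and 712. Members averaging at least 100 normalised counts numbered 7 with MS-275 and 13 in the adult controls. Members with a read numbered 28 with MS-275 and 27 in the adult controls.

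**Figure D4:**
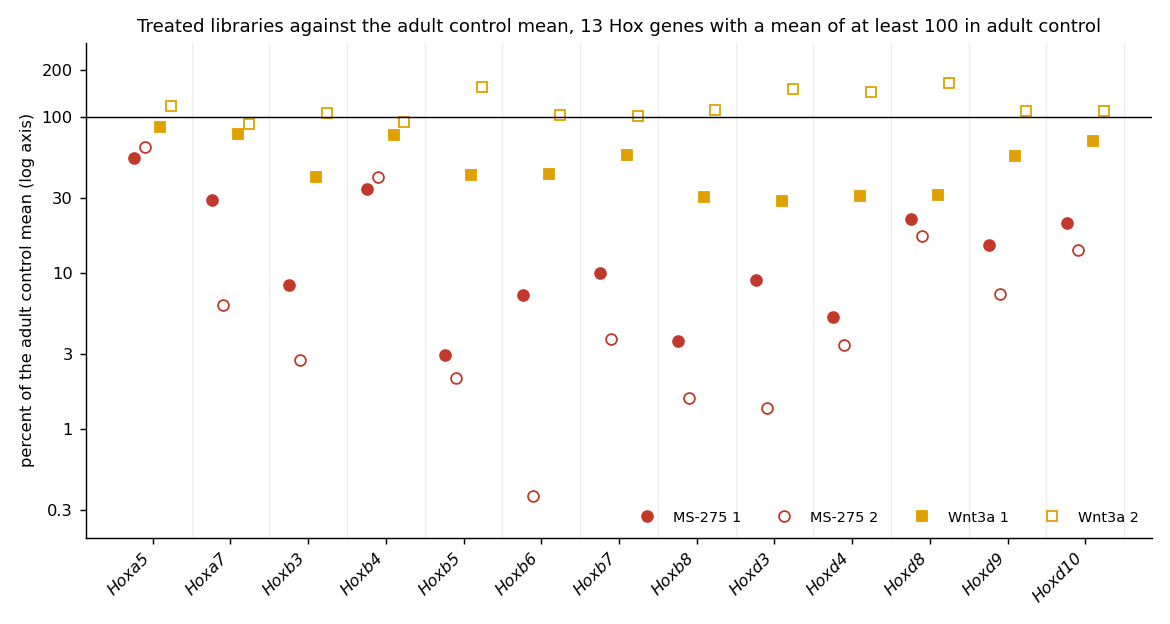
Level in each MS-275 and Wnt3a library as a percentage of the adult control mean, on a log axis, for the 13 Hox genes with a mean of at least 100 in the adult controls, with a line at the control mean. All MS-275 points lie below the line, those of Hoxa5 and Hoxb4 closest to it, and Wnt3a 1 lies below both the line and Wnt3a 2 for all 13 genes.

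With Wnt3a, no Hox member was called higher or lower by limma, edgeR or DESeq2, and none had an unadjusted p under 0.05 in the limma test. Over all genes tested 0% were called in each direction, and 916 had an unadjusted p under 0.05. The smallest limma adjusted p of a member was 0.795, for Hoxb8, with a log2 difference of -0.78 (SE 0.65). The median log2 difference was -0.25 over the tested members and 0 over all genes. The Wnt3a libraries differed from each other, with summed Hox levels of 8865 and 25023 normalised counts, against 17364, 18472 and 25883 in the adult controls. In Wnt3a 1, Hoxb8 had 1748, Hoxd8 1316, Hoxb7 1434, Hoxb6 763 and Hoxb5 221, each below every adult control. In Wnt3a 2 the same genes had 6328, 6893, 2545, 1825 and 802, within or above the range of the adult controls. Hoxb4 was the only member of the 14 that average at least 100 in a group with both Wnt3a libraries below all controls, at 532 and 637, against 683 to 700.0, a log2 difference of -0.24.

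The other members with high adult levels were split in the same way. Wnt3a 1 and 2 had 468 and 1219 normalised counts of Hoxb3, against 1088 to 1202 in the adult controls, and 140.3 and 731 of Hoxd3, against 269 to 885. They had 176 and 823 of Hoxd4, against 352 to 919, and 496 and 962 of Hoxd9, against 752 to 1077. Hoxd10 and Hoxa7 differed less, at 595 and 932, against 812 to 913, and at 695 and 803, against 797 to 942. The HoxA members of lower level were near the controls, with 55.6 and 81.2 of Hoxa3, 132 and 180.3 of Hoxa5 and 36.1 and 50.1 of Hoxa6. Hoxb2 had 8.34 and 48.9 and Hoxb9 13.9 and 43.0 with Wnt3a. Hoxb13 and Hoxc13 had no read with Wnt3a. With 2 libraries this far apart, a change within their spread was not detectable.

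Control 3 stood apart from the other adult controls in some of the Hox genes, and Wnt3a 2 lay near it in part of them. Control 3 had 2.77 times the mean of controls 1 and 2 for Hoxd8, 3.15 times for Hoxd3, 2.32 times for Hoxd4, 2.29 times for Hoxa3 and 1.70 times for Hoxb5. For Hoxb7 and Hoxd10 it had 1.04 and 0.967 times. Wnt3a 2 had 95.5% of the level of control 3 for Hoxd8, 82.5% for Hoxd3, 89.5% for Hoxd4, 71.0% for Hoxa3 and 112% for Hoxb5. Hoxb2 and Hoxa2 were lower in control 3, at 0.547 and 0.567 times the mean of controls 1 and 2, and there Wnt3a 2 had 166% and 272% of control 3. Hoxa10, known for its role in the uterus, had 0 and 66.9 normalised counts with Wnt3a and 0, 0 and 56.2 in the adult controls, so that it was present in Wnt3a 2 and control 3 only among these 5 libraries. It had 8.53 and 10.9 with MS-275. Over all genes the log2 levels of control 3 and Wnt3a 2 correlated at r = 0.9904, of controls 1 and 2 at 0.9925 and of the 2 Wnt3a libraries at 0.9501, as a description across genes, which are not independent. No label names a batch. With a library set as a term (control 3, Wnt3a 2 and MS-275 2 against the other adult libraries, chosen after seeing the data), the MS-275 comparison gave 14 members lower and 3 higher, with Hoxa5 (limma adjusted p = 0.0443) and Hoxd8 (0.0463) passing and Hoxa6 (0.0686) and Hoxb2 (0.136) not. Over all 15211 genes tested, 2791 were lower and 3465 higher in this setting, so the member counts are a description.

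Further members had few reads in all groups. Hoxa2 had 0 and 7.65 with MS-275, against 15.6, 12.2 and 7.89 in the adult controls, a log2 difference of -2.09 without overlap between the groups (SE 0.82, limma adjusted p = 0.0725). Hoxa9 reached at most 17.9 and Hoxa4 at most 8.87, both in adult ECs. Hoxd11 had 22.2 in Wnt3a 1 and at most 4.07 elsewhere. Hoxa13, Hoxb1, Hoxc5, Hoxc10, Hoxc11 and Hoxd1 had at most 4.37 in any library. Without a limit on low values Hoxa4 was called higher (log2 difference 2.41, limma adjusted p = 0.0162) and Hoxd13 lower (-1.93, adjusted p = 9.0e-04) in the adult controls than in the E13.5 libraries, and Hoxc4 (2.24, adjusted p = 0.0102) and Hoxc6 (2.70, adjusted p = 3.7e-04) higher with MS-275.

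Genes in the flanks of the clusters were read out in the same way. They lie between 28.86 kb (Ttll6) and 910.4 kb (Nfe2l2) from the end of their cluster, so many are not direct neighbours. In the flank of HoxD, Lnpk, an endoplasmic reticulum gene 88.88 kb beyond Hoxd13, averaged 677 ± 20.8 normalised counts with MS-275 (SD, n = 2) and 151 ± 64.7 in the adult controls (SD, n = 3), and rose by 2.23 on the log2 scale (limma adjusted p = 8.9e-04). Mtx2, a mitochondrial gene 60.66 kb beyond Hoxd1, averaged 1724 ± 355 with MS-275 and 1435 ± 238 in the adult controls (limma adjusted p = 0.469), and Atp5g3, Hnrnpa3 and Nfe2l2 did not pass the test either. In the flank of HoxA, Tax1bp1 rose by 1.80 (limma adjusted p = 0.0047) and Snx10, Skap2, Hibadh and Jazf1 did not pass. In the flank of HoxB, Snx11 rose by 0.75 (limma adjusted p = 0.0201), Cbx1, Skap1 and Atp5g1 did not pass, and Ttll6 and Calcoco2 were too low to test. In the flank of HoxC, Calcoco1 rose by 1.61 and Smug1 by 1.06, Cbx5 fell by 1.44 and Atp5g2 by 0.99 (limma adjusted p = 0.0046, 0.0032, 0.0058 and 0.0047), Hnrnpa1 did not pass, and Nfe2 was too low to test.

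In the adult controls against the E13.5 libraries the flanks moved both ways. Skap2, an adaptor protein gene in the flank of HoxA, averaged 2531 ± 610 normalised counts in the adult controls and 206 ± 24.5 in the E13.5 libraries, a log2 difference of 3.59 (limma adjusted p = 1.1e-06). Snx10 (0.63) and Snx11 (0.70) were higher as well. Lnpk (-2.60), Jazf1 (-3.38) and Tax1bp1 (-0.91) were lower, and the tested flank genes of HoxC did not pass the test.

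**Figure D5:**
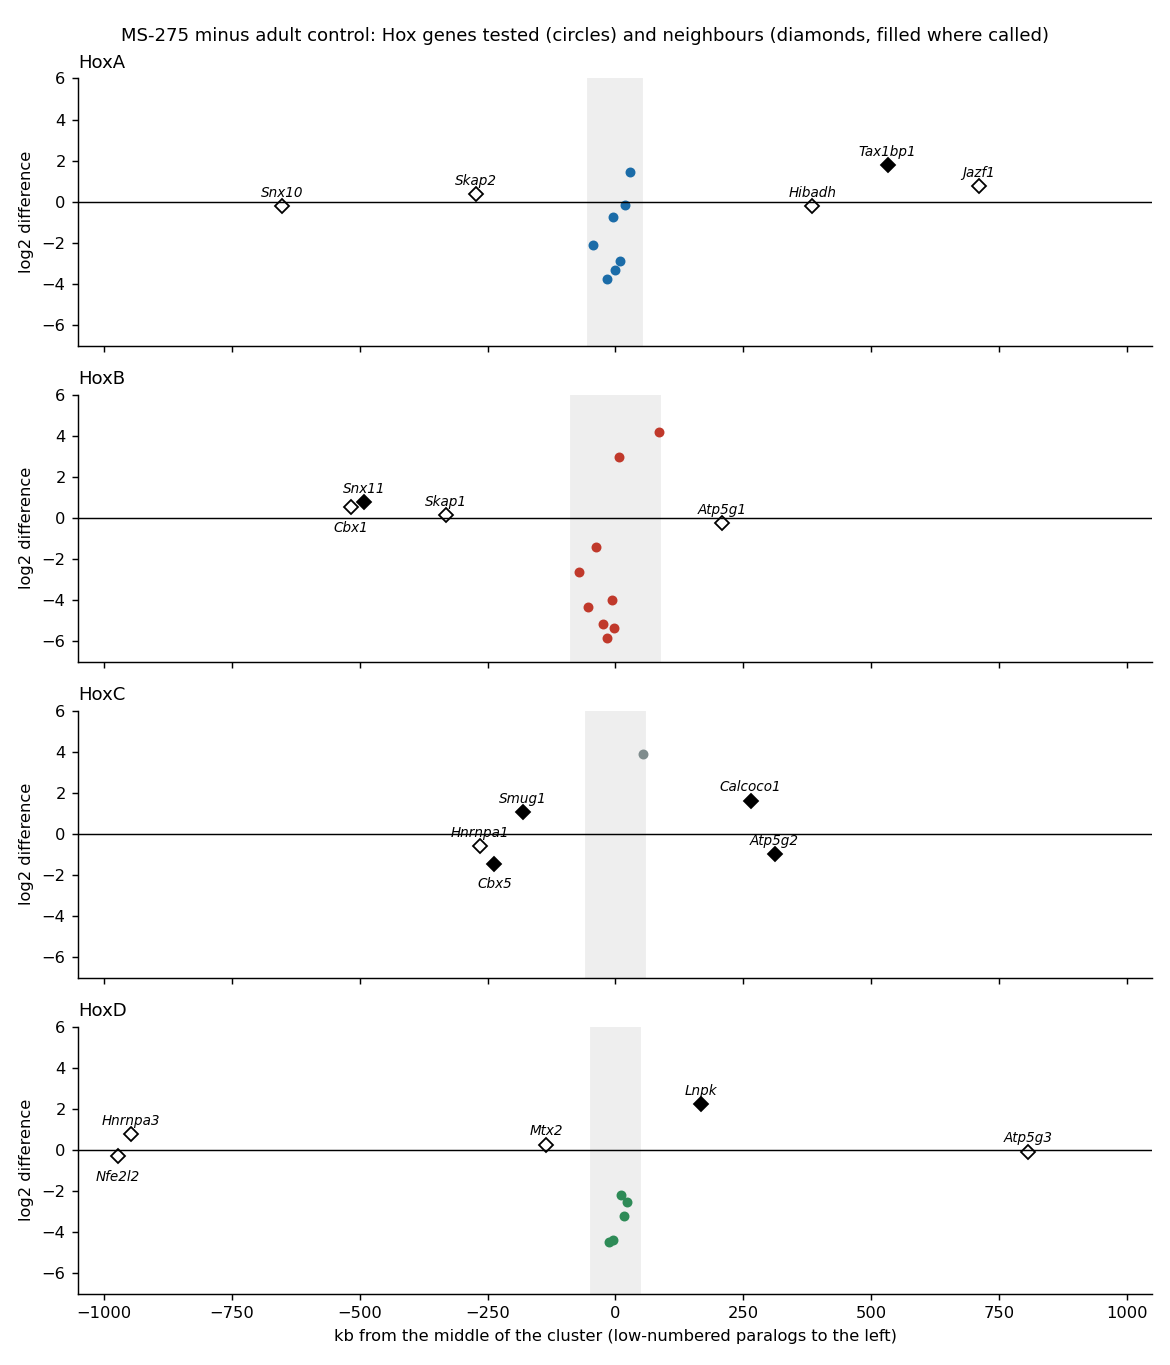
Log2 difference of MS-275 against the adult controls for 22 of the 23 tested Hox members (coloured circles inside the grey cluster span) and the tested flank genes (diamonds, filled where called), by distance in kb from the middle of each cluster. The differences below -2 all lie inside the HoxA, HoxB and HoxD spans, and Cbx5 and Atp5g2 beside HoxC are the only flank genes called lower.

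Among the lists of related genes, forebrain and midbrain patterning factors had the opposite direction to the Hox genes. The neural progenitor and neuron markers, which share Tbr1 with this list, were also higher in the E13.5 libraries. Their part in this difference was not tested. All 11 tested of the 14 patterning factors were lower in the adult controls than in the E13.5 libraries, against 31.2% of all genes tested. Six3, an early forebrain and eye gene, averaged 1.31 normalised counts in the adult controls and 1750.0 in the E13.5 libraries (log2 difference -10.00), and Otx2 had no read in the adult controls and 645 in the E13.5 libraries. With MS-275, 1 of 11 rose, Pax6, at 2.49 with MS-275 and 0.329 in the adult controls, against 21.8% of all genes. None of the 8 Cdx, Evx and ParaHox genes, relatives and regulators of the Hox clusters, passed the limit on low values.

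The TALE cofactors, the Pbx, Meis and Pknox proteins that bind DNA with Hox proteins, moved in both directions. In the adult controls 2 of 9 were higher and 4 lower than in the E13.5 libraries, led by Pknox2 (-9.36), Meis3 (-6.35) and Pbx4 (-5.64). With MS-275, 3 fell and 1 rose. The shares over all genes were 17.9% higher and 31.2% lower in the adult controls, and 17.4% lower and 21.8% higher with MS-275. Pbx3 averaged 259 ± 79.4 with MS-275 and 1151 ± 101 in the adult controls and fell by 2.18 (limma adjusted p = 6.4e-04). Meis2 had 517 and 559.6 with MS-275, against 2215, 2268 and 8022 in the adult controls, and fell by 2.67 (limma adjusted p = 0.0235), and its Wnt3a values of 1332 and 8137 followed the split of Hoxd8. Pknox2 averaged 20.1 with MS-275 and had no read in the adult controls (log2 difference 4.40, limma adjusted p = 0.0016).

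In retinoic acid signalling, 10 of 15 tested genes were lower in the adult controls than in the E13.5 libraries and none was higher, led by the binding protein Crabp1 (-12.78) and the synthesis enzymes Aldh1a2 (-8.32) and Aldh1a3 (-8.01). With MS-275, 4 rose and 4 fell. Among all genes tested, 31.2% were lower and 17.9% higher in the adult controls, and 21.8% rose and 17.4% fell with MS-275. Aldh1a1, another synthesis enzyme, averaged 299 ± 98.3 with MS-275 and 25.6 ± 44.4 in the adult controls (log2 difference 6.09, limma adjusted p = 0.0257), and Crabp1 averaged 14.1 with MS-275 and had no read in the adult controls (3.81, limma adjusted p = 0.001). Dhrs3, which reduces retinal, averaged 48.4 ± 65.4 with MS-275 and 320.1 ± 98.2 in the adult controls (-4.15, limma adjusted p = 0.0271).

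Of the trithorax regulators, 1 of 11 fell with MS-275 and 1 rose. Kmt2b, a histone H3 lysine methyltransferase, averaged 598 ± 213 with MS-275 and 1924 ± 384 in the adult controls (-1.71, limma adjusted p = 0.0014), and Rbbp5, a subunit of the same complexes, averaged 2999.7 ± 464 with MS-275 and 1569 ± 51.8 in the adult controls (0.93, limma adjusted p = 0.0019). Of the Polycomb regulators, 6 of 19 fell and 1 rose with MS-275. Among all genes tested, 17.4% fell and 21.8% rose with MS-275. The largest falls were those of Pcgf2 (-2.04, limma adjusted p = 1.5e-04), Phf19 (-1.99, 0.0194) and Bmi1 (-1.37, 0.0058). In the adult controls against the E13.5 libraries, 3 of 11 trithorax regulators were lower, Psip1 (-0.71), Wdr5 (-0.67) and Kmt2a (-0.65), and none was higher. Of the Polycomb regulators 2 were higher and 5 lower, with the methyltransferase Ezh1 at 1.93 and its relative Ezh2 at -1.59 and Phc1 at -1.44. The shares over all genes were 17.9% higher and 31.2% lower, and neither list lay above them. With Wnt3a no gene of these lists or flanks was called.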

How the data were processed

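RNA of primary mouse cortical endothelial cells was sequenced by the authors with paired-end reads, aligned with STAR to mm10 and counted on protein-coding genes. The submitters' processing notes also name FastQC, cutadapt, featureCounts and DESeq2, without versions. Strand use in counting is not given in the sources at hand. The authors deposited a signal, gene counts after division by library size factors (0.7198 to 1.2585). Multiplying back gave whole reads within 0.01 for 100% of values. Of 21638 lines, 26 with a date in place of a symbol (0.21% to 0.281% of a library) were left out, and 2545 of the 21612 genes had no read.

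The test was limma 3.58.1 (R 4.3.3) on log2(normalised count + 1) with the variance trend, in one fit of all 10 libraries, for the 15211 genes with at least 10 normalised counts in at least 2 libraries. Benjamini-Hochberg adjustment ran over all of them, and calls needed adjusted p under 0.05 together with a log2 difference beyond 0.2 in size. Fold changes on this scale understate low genes. Every adjusted p is from limma unless edgeR (4.0.16) or DESeq2 (1.42.0), run on the recovered reads, is named. The fit was tried on simulated counts at the depths of the adult control and E13.5 libraries only, 3 against 3. This did not cover the treated groups of 2 libraries. P-values measure the spread between these libraries, which may be technical in part. A gene with no read in a group was compared with a floor of 3 reads over that group, which covers counting error only. Exon lengths and positions came from the GENCODE annotation on GRCm38 and promoters from RefSeq on GRCm38.p6.

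A Hox member was given in every library when it averaged at least 100 in a group or was called, and up to 3 called genes with the largest differences were named per list. Some genes are not reported here. The members and lists were chosen with earlier results of these data known. Alternatives were other pseudocounts (0.5 and 10), limits on low values (none and 50), normalisations, tools and fits, a log2 limit of 1, a replicate block and leaving out each library.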

Additional observations from a re-analysis of the deposited data

How the results depend on the processing

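In the adult controls against the E13.5 libraries, 16 to 20 members were higher under the alternatives tried and 17 without any single library. The 17 calls were kept in every setting that tested them. No member would have passed the limit on low values by the E13.5 libraries alone, so these counts are a description. The lower count of 1 was 2 without a limit on low values, 0 with a limit of 50 and 0 with quantile normalisation, and 1 without any single library. With MS-275, the 14 lower members were 11 to 15 under the alternatives other than the block and 11 to 13 without single libraries. The 3 higher members were 5 without a limit on low values, 1 with a limit of 50 and 2 to 3 without single libraries. Hoxa3, Hoxb3, Hoxb5, Hoxb6, Hoxb7, Hoxb8, Hoxd4, Hoxd9 and Hoxd10 stayed called lower in every setting that tested them other than the replicate block. Hoxc13 stayed called higher in the same settings. For Hoxc13, which passed the limit on low values only with the MS-275 libraries, this is a description. The same holds for Hoxa3 and Hoxb6, which would not have passed it by the MS-275 libraries alone. Wnt3a gave 0 members in each direction in every setting, also where leaving out control 3 called 412 genes higher and 167 lower over all genes, and leaving out Wnt3a 2 called 33 and 41.

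With replicate number as a block, MS-275 gave 0 members higher and 0 lower, and 0 genes in all, in a fit of 4 libraries. The 14 lower members then had adjusted p-values of 0.0807 to 0.135, and for the adult controls against the E13.5 libraries the 17 kept calls had 0.000224 to 0.00763. Whether the numbers pair the treated samples with the controls could not be decided, and the block result rests on that pairing. Over all genes Wnt3a 2 and MS-275 2 correlated more with control 3 (r = 0.9904 and 0.8734) than with control 2 (0.9564 and 0.8559). Wnt3a 1 and MS-275 1 correlated most with control 1 (0.9676 and 0.9039). Same-numbered adult and E13.5 libraries had deviations that correlated at 0.0661, -0.00325 and 0.0189. MS-275 and control libraries 1 and 2 correlated at 0.312 and -0.258. The deviations of the 2 MS-275 libraries mirror each other, and controls 1 and 2 were alike (r = 0.9925 over genes), so these opposite signs were fixed in advance.

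Directions turned only in members that were not called, and in Hoxc13. Against the E13.5 libraries, leaving out single libraries gave log2 differences of -0.51 (without control 3) to 2.41 for Hoxa10, and quantile normalisation gave 0.42 for Hoxc13 (adjusted p = 0.502). With MS-275, Hoxa9 was at 1.07 with the block and at -1.23 to 1.07 without single libraries (0.91 without MS-275 2, 1.07 without control 3), and Hoxa10 was at -0.99 with edgeR and -0.94 with DESeq2. With Wnt3a, the direction over the alternatives was followed for Hoxb7, Hoxb8 and Hoxd8 only, and not for the other members. Single libraries left out gave -0.81 to 0.022 for Hoxb7, -1.70 to 0.15 for Hoxb8 and -1.48 to 0.91 for Hoxd8, the upper values without Wnt3a 1. Hoxd8 was at 0.21 with the block and without control 3. The cause was not tested. Over all genes, the median for the adult controls against E13.5 was -0.20. It was 0.12 with quantile normalisation, -0.33 with equal totals and -0.02 with edgeR. The Hox median of 7.83 describes members that would not have passed the limit on low values by the E13.5 libraries alone. Precision is limited by 2 libraries in each treated group, by the low reads of HoxC and by exons shared between Hoxd3 and Hoxd4.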
